A study of Mus musculus with 24 samples.

Results

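The genes described here are 10 mouse genes, Car6, Cdsn, Cox6a2, Gdap1l1, Avil, Sh2d6, Angptl6, Tenm4, P2rx3 and Ppef1, out of 49568 gene symbols in the deposited count table. They were selected on the measured counts of the light and heavy polysome libraries: halofuginone raised each of them at least 2-fold in all 6 pairs of those libraries, so their change in those pools is a description here and carries no test. Of 12941 genes with a count in every light and heavy library, 16 met that rule (0.124%) on CPM (counts per 1000000 counts of a library) scaled by edgeR's trimmed-mean (TMM) factors, and the 10 genes are among them. The other 6 were Htatip2, Aldh1l2, Stbd1, Slc7a11, Tg and Gm12758. Just inside the rule were Ppef1, whose lowest pair ratio was 2.07, Gm12758 at 2.17 and Tg at 2.35, and just outside it were Nat14 at 1.98, Plekhh1 at 1.95 and Ercc1 at 1.89. On CPM of the library total, without TMM factors, Ppef1 had a lowest ratio of 1.90, and 15 genes (0.116%) including 9 of the 10 met the rule. All levels and pair ratios below are on CPM of the library total.

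Most of these genes are known for roles outside fibroblasts. Car6 encodes the secreted carbonic anhydrase of saliva, Cdsn the adhesion protein corneodesmosin of the cornified epidermis, and Cox6a2 the heart and skeletal muscle form of a cytochrome c oxidase subunit. Avil (advillin) is an actin-binding protein of the gelsolin family known from sensory neurons and tuft cells, P2rx3 an ATP-gated cation channel of sensory neurons, and Ppef1 a protein phosphatase with EF-hand domains. Gdap1l1 is a paralog of the neuronal glutathione S-transferase-like gene Gdap1, Tenm4 a teneurin, a large transmembrane protein of the developing nervous system, Sh2d6 an SH2-domain protein known from tuft cells, and Angptl6 a secreted angiopoietin-like protein known from liver. Car6, Tenm4 and Avil also carry the older names DOC1, Doc4 and DOC6 in RefSeq, under which they were described in mouse cells as mRNAs downstream of Chop, the product of Ddit3. When uncharged tRNA builds up, the kinase Gcn2 phosphorylates eIF2alpha, general translation falls while translation of Atf4 mRNA rises, and the transcription factor Atf4 raises Ddit3, Trib3 and genes of amino acid supply.

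The RNA came from NIH/3T3, a fibroblast line that was derived from mouse embryos and is long established. Halofuginone libraries came from cells given, per the labels, 100 nM of the drug, an inhibitor of the glutamyl-prolyl-tRNA synthetase Eprs, for 24 h at 37 °C, and vehicle libraries from cells given PBS for the same time. Each treatment has 3 libraries of total RNA and 3 of each gradient pool: ribosome-free (free mRNA and ribosomal subunits), light polysomes (few ribosomes per mRNA) and heavy polysomes (more than 5), which makes 24 libraries. Total RNA was taken from the same treated cells as the pools, per the series' design text, so the kinds of RNA are not independent cultures. Depth was 17.5 to 25 megacounts in total RNA, 10.3 to 17.5 in ribosome-free, 14.5 to 21.6 in light and 13.4 to 22.5 in heavy libraries. Column headers place libraries in groups but not in single samples. Set A, 8 columns with no replicate number and 1 for each group, names 50 nM for halofuginone and gradient fractions 1 to 2, 3 to 6 and 7 to 11. Set B, 16 columns with tags 2 and 3 in total RNA and 2 and 4 in the pools, names fractions 1 to 5, 6 to 13 and 14 to 21. Dose, fraction limits and set therefore cannot be told apart, and libraries are called by their set or tag here. Fibroblast markers were high, with a summed level of 4864 to 10020 CPM in halofuginone and 10621 to 12147 CPM in vehicle total RNA over the 11 listed genes.

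Promoter windows were read because these mRNAs rose together, which the rule that chose them required in the polysome pools. Avil and Tenm4 are shown for the only motif matches among the 7 genes that had a window. RefSeq (GRCm38.p6) held 9 windows for 7 of the 10 genes, each the 250 bases before an annotated start, out of 32851 such windows. Cox6a2, Gdap1l1 and P2rx3 had no window and were not searched. Matches on either strand were sought to TGATGNAA, the composite element known for a C/EBP protein beside an Atf, to TGCAAT, the core of the known Chop and C/EBP site, and to TGACGT, the core of the cAMP response element. TGATGNAA was in 1 of the 9 windows, against 3.45% of all windows, TGCAAT was in 1 of 9, against 7.32%, and TGACGT was in 0 of 9, against 6.47%. The Avil window is chr10:127000459-127000708 on the plus strand, and the Tenm4 window with the match is chr7:96170994-96171243 on the plus strand. Another Tenm4 window, chr7:96211421-96211670, held none of the 3 motifs. Trib3, a pseudokinase gene that Atf4 and Chop are known to raise, is shown beside them, with the window chr2:152344061-152344310 on the minus strand. The window of Ddit3, read likewise, held none of the 3 motifs and is not shown. Capitals mark the match, and each sequence runs 5′ to 3′ towards the gene.
Avil: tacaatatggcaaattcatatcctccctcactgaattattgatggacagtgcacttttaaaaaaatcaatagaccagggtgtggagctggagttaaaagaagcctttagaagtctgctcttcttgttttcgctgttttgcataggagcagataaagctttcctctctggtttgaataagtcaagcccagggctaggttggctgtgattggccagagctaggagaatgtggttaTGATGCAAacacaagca
Tenm4: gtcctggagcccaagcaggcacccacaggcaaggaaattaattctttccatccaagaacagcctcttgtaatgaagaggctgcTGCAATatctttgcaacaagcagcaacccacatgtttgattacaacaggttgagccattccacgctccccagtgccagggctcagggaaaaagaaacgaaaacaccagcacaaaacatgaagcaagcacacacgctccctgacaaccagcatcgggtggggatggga
Trib3: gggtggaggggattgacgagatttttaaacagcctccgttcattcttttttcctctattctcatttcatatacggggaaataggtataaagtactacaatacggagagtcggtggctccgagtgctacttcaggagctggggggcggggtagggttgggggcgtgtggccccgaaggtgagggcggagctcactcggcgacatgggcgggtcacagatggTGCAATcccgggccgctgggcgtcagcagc
The Avil match reads TGATGCAA and begins 17 bases before the start. The Tenm4 match reads TGCAAT and begins 167 bases before it, and Trib3 held the same letters 30 bases before its start. The windows of Car6, Cdsn, Sh2d6, Angptl6 and Ppef1 held none of these letters, which says nothing about more distant sequence. A match is a string of letters and not a shown binding site.

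The 10 genes lie on several chromosomes and have coding sequences of unlike length. By GENCODE M21 on GRCm38, Car6 spans chr4:150187015-150201332, Cdsn chr17:35552128-35557180, Cox6a2 chr7:128205435-128206387, Gdap1l1 chr2:163438476-163455324 and Avil chr10:127000709-127020994. Sh2d6 spans chr6:72513641-72521707, Angptl6 chr9:20873808-20879727, Tenm4 chr7:96171246-96911093, P2rx3 chr2:84998583-85037462 and Ppef1 chrX:160623094-160735765. The longest coding sequence was 291 bases in Cox6a2, 951 in Car6, 1071 in Sh2d6, 1110 in Gdap1l1, 1191 in P2rx3, 1371 in Angptl6, 1683 in Cdsn, 1950 in Ppef1, 2457 in Avil and 8499 in Tenm4. Proline codons, the codons whose tRNA charging the drug limits, made up a median of 4.78% of the 10 coding sequences, within 3.54% to 12%. Over all 11331 expressed genes with a coding sequence the median was 5.50%, and 4 of the 10 lay above it. For glutamate codons the median was 5.69% in the 10 and 6.89% over all genes, with 3 of the 10 above that of all genes.

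In total RNA, which the choice of the genes did not use, the levels of all 10 were higher on average in halofuginone libraries than in vehicle libraries, and 9 of the 10 did so without overlap. That pattern, all 3 halofuginone libraries above all 3 vehicle libraries, held for 10.4% of the 11958 genes that averaged 1 CPM or more over all libraries. Total RNA came from the same treated cells as the pools that chose the genes, so it is no independent check of them. With halofuginone Car6 had 14.3 CPM in set A, 190 in tag 2 and 178 in tag 3, against 0.330, 0.863 and 0.799 CPM with vehicle. Cdsn, the most abundant of the 10, had 142, 484 and 465 CPM with halofuginone, against 15.6, 11 and 14.4 CPM with vehicle. For both genes even the lowest halofuginone library, that of set A, lay well above the highest vehicle library.
Cox6a2 had 5.40, 20.1 and 18.4 CPM with halofuginone, against 0.165, 0.561 and 0.514 CPM with vehicle. Its set A ratio of 32.7 rests on 3 vehicle counts and has a 95% counting interval of 10.9 to 161. This muscle subunit was thus near the counting floor in vehicle cells, where the 3 libraries held 3, 13 and 9 counts.
The genes known from neurons had higher values likewise. Avil had 8.04, 14.2 and 14.8 CPM with halofuginone, against 0.881, 0.431 and 0.913 CPM with vehicle. Gdap1l1 had 3.68, 9.92 and 9.61 CPM with halofuginone, against 0.55, 0.431 and 1.03 CPM with vehicle. P2rx3 had 32.2, 48.3 and 48.3 CPM with halofuginone, against 10.6, 6.17 and 4.74 CPM with vehicle. In these 3 genes the groups did not overlap, and the set A halofuginone library was the lowest of its group.
Tenm4 had 10.0, 136 and 149 CPM with halofuginone, against 6.22, 8.15 and 9.13 CPM with vehicle. Ppef1 had 7.31, 101 and 105 CPM with halofuginone, against 4.24, 7.33 and 6.34 CPM with vehicle. In Tenm4 the set A halofuginone library stood barely above the vehicle libraries, and in Ppef1 it lay among them, which makes Ppef1 the 1 gene of the 10 whose groups overlapped. Angptl6 had 6.54, 56.7 and 54.3 CPM with halofuginone, against 2.53, 2.07 and 2.17 CPM with vehicle. Sh2d6 had 8.08, 25.3 and 32.6 CPM with halofuginone, against 2.59, 2.72 and 3.37 CPM with vehicle. Both secreted Angptl6 and the adaptor Sh2d6 kept a gap between the groups.

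**Figure D1:**
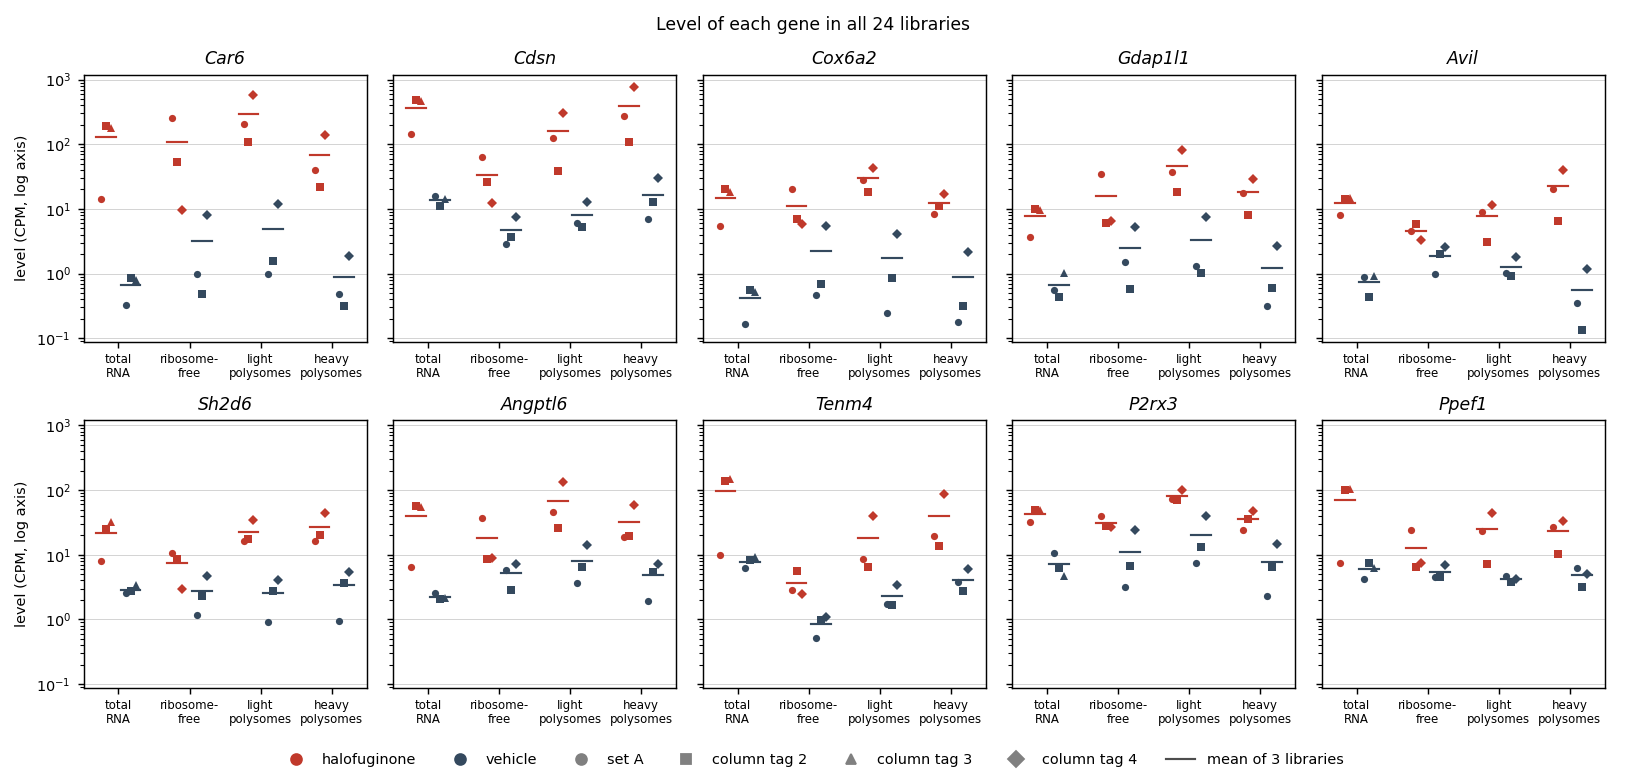
Level of each of the 10 genes in CPM on a log axis, in total RNA and the ribosome-free, light and heavy pools, with halofuginone libraries left of vehicle libraries. Symbols mark the set or tag of the column and bars the mean of 3 libraries. In total RNA the set A halofuginone library is the lowest of its group for every gene, as for Tenm4 at 10.0 CPM against 136 and 149 CPM.

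Set per length, the vehicle levels of most of the 10 were low among expressed genes. In vehicle total RNA the mean level per kilobase of exon was 0.22 ± 0.08 CPM for Avil (SD, n = 3), 0.26 ± 0.12 for Gdap1l1, 0.37 ± 0.16 for Car6, 0.37 ± 0.07 for Tenm4 and 0.61 ± 0.32 for Cox6a2. Next came Angptl6 at 1.43 ± 0.15 CPM per kilobase, Sh2d6 at 1.71 ± 0.25, Ppef1 at 2.06 ± 0.55, P2rx3 at 2.57 ± 1.09 and Cdsn at 5.10 ± 0.88. Avil stood at the 3.92 percentile of tested genes and Cdsn at the 42.8 percentile. The libraries of neighbours in this order overlapped, except that all those of Angptl6 lay above those of Cox6a2 and all those of Cdsn above those of P2rx3. With halofuginone Cdsn averaged 136 ± 71.8 CPM per kilobase, at the 97.8 percentile, and Car6 70.3 ± 54.2, at the 95 percentile. At the low end with halofuginone were Gdap1l1 at 3.00 ± 1.36 and Avil at 3.64 ± 1.10 CPM per kilobase.

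The quasi-likelihood test of edgeR on the 6 total RNA libraries called none of the 10 after Benjamini-Hochberg adjustment over 13020 genes. It called 0 genes in all (0%), and all 10 had an adjusted p of 0.267. All 10 had an unadjusted p under 0.05 and were higher, as were 1455 genes (11.2%). Car6, Cox6a2, Avil and Gdap1l1 passed the filter on low counts only with their halofuginone libraries, where they were high. The log2 fold change was 7.64 ± 1.18 (SE) for Car6, 5.19 ± 0.71 for Cox6a2, 4.80 ± 0.55 for Cdsn, 4.19 ± 0.83 for Angptl6 and 4.13 ± 0.44 for Avil. It was 3.73 ± 0.95 for Tenm4, 3.65 ± 0.95 for Ppef1, 3.61 ± 0.56 for Gdap1l1, 3.00 ± 0.54 for Sh2d6 and 2.64 ± 0.37 for P2rx3. The median over the 10 was 3.93, against 0.02 over all genes tested. The Wald test of DESeq2 on the same libraries called all 10 higher, with 296 of 13020 genes called higher (2.27%). When the halofuginone library of set A was left out, edgeR called all 10 higher, as it did 29.6% of 13455 genes, and in set B alone it called all 10, as it did 33.1% of 13334 genes. Markers of fibroblasts had for the most part lower levels with halofuginone in the same libraries. Of 11 listed, edgeR called 0 and found 7 lower at an unadjusted p under 0.05 (6.43% of all genes), among them the collagen genes Col1a1, Col1a2 and Col3a1, with a median log2 fold change of -1.02 over the 11. DESeq2 called 3 of them lower (1.68% of genes), and in set B alone edgeR called 10 lower (36.9%) and 1 higher. The part of these differences in the values of the 10 genes was not tested. In these bulk libraries, more cells with an mRNA and more of it per cell cannot be told apart.

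The size of the halofuginone effect in total RNA differed between the header sets. The median pair ratio of the 10 was 4.90 in set A, 25.2 in tag 2 and 16.5 in tag 3. The tag 3 libraries of total RNA are matched by their tag only, as across genes they did not correlate as a pair (-0.001). At least 2-fold ratios were reached by 8 of the 10 in set A (1.26% of genes), and by all 10 in tag 2 (8.48%) and tag 3 (10.5%). In edgeR's fit of treatment and set together, all 10 had a larger log2 fold change in set B than in set A, and for 7 of the 10 that difference was called, as it was in that direction for 24.4% of 13020 genes. The differences in log2 fold change, set B minus set A, were 3.44 ± 0.20 (SE) for Tenm4, 3.43 ± 0.26 for Angptl6, 3.20 ± 0.23 for Ppef1, 2.45 ± 0.56 for Car6, 2.13 ± 0.19 for Cdsn, 1.71 ± 0.36 for Sh2d6 and 1.61 ± 0.23 for P2rx3. The other 3 were not called: Avil at 1.39 ± 0.53 with an adjusted p of 0.0581 in edgeR, Gdap1l1 at 1.16 ± 0.68 with 0.187 and Cox6a2 at 0.24 ± 0.84 with 0.861. Set A holds 1 library per treatment, which is assumed to vary like those of set B. Cox6a2 had ratios of 32.7, 35.9 and 35.8 in set A and tags 2 and 3, while Tenm4 had 1.61, 16.7 and 16.3.

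**Figure D2:**
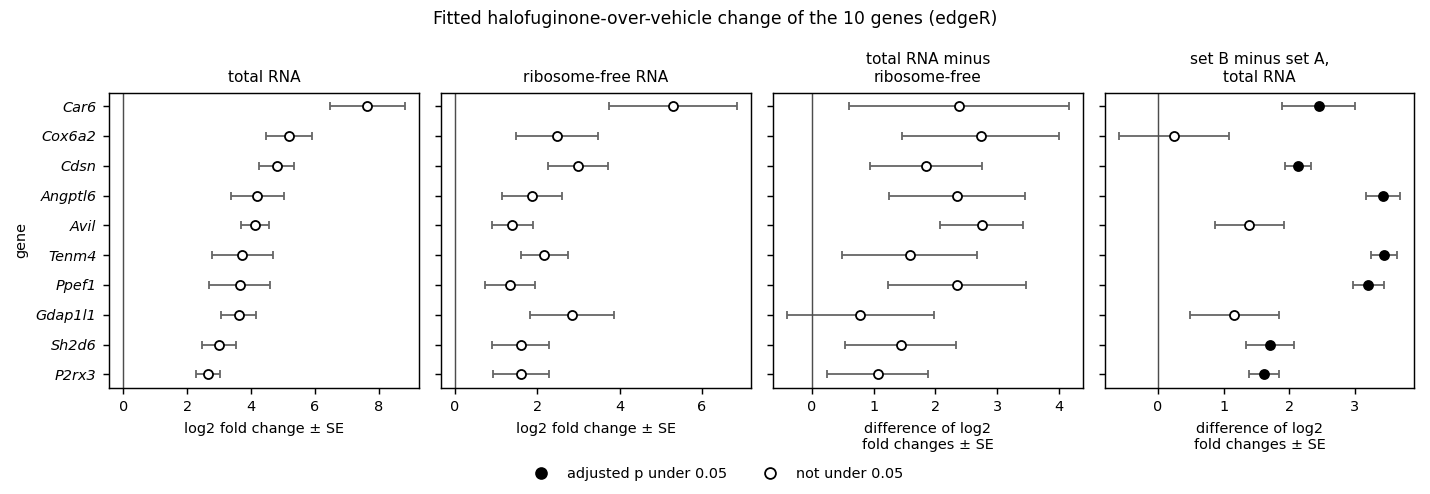
Fitted log2 fold changes of the 10 genes, halofuginone over vehicle, with standard errors, in total RNA and ribosome-free RNA, and the differences of such changes between kinds of RNA and between header sets. Filled points had an adjusted p under 0.05 in edgeR. All points lie above 0, and the filled ones are the 7 genes whose change was called larger in set B than in set A.

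In ribosome-free RNA, which the choice of the genes did not use either, 8 of the 10 were higher in all 3 halofuginone libraries than in all 3 vehicle libraries. This held for 0.978% of genes. These libraries and the polysome libraries that chose the genes are not independent cultures, so this is no independent check. Libraries of tag 4 stood apart there. In set A, tag 2 and tag 4 Car6 had 258, 53.6 and 9.68 CPM with halofuginone, against 0.979, 0.485 and 8.05 CPM with vehicle. Cdsn had 63.5, 26.3 and 12.2 CPM with halofuginone, against 2.88, 3.69 and 7.60 CPM with vehicle. The pair of tag 4 was thus nearly level for Car6, through a low halofuginone and a high vehicle library.
The median pair ratio of the 10 was 10.9 in set A and 5.03 in tag 2, but 1.22 in tag 4. All 10 reached 2-fold in set A (2.58% of genes) and 9 of the 10 in tag 2 (2.05%), but only Tenm4, at 2.27, did so in tag 4 (2.28%). Sh2d6 had a ratio of 0.625 in that pair. On CPM of the library total it was the single one below 1 among all 120 over the 4 kinds of RNA. On TMM-scaled CPM, Cox6a2 at 0.977 and Ppef1 at 0.987 also lay below 1 in that pair, and the groups of Cox6a2 then overlapped too. Sh2d6 had 10.8, 8.56 and 2.94 CPM with halofuginone, against 1.15, 2.33 and 4.71 CPM with vehicle, and its groups overlapped. Ppef1 had 23.9, 6.38 and 7.40 CPM with halofuginone, against 4.49, 4.56 and 6.88 CPM with vehicle, and also overlapped.
The test of edgeR called 0 of the 10, and 0 of 11960 genes (0%), with an adjusted p of 1.00 for each of the 10. At an unadjusted p under 0.05, 8 of the 10 were higher, as were 19 genes in all (0.159%), and DESeq2 called 0 genes after adjustment. That count rested on single libraries. It was 3 of the 10 without the set A halofuginone library, Car6, Tenm4 and Cdsn (0.0657% of genes), 3 without the tag 2 vehicle library (0.0809%), 4 without the set A vehicle library (0.189%) and 2 in set B alone (0.0749%). The median log2 fold change of the 10 was 2.02 over all 6 libraries, 1.36 without the set A halofuginone library and 1.07 in set B. The log2 fold change was 5.29 ± 1.56 (SE) for Car6, 2.99 ± 0.73 for Cdsn, 2.84 ± 1.02 for Gdap1l1, 2.48 ± 1.00 for Cox6a2 and 2.17 ± 0.57 for Tenm4. It was 1.87 ± 0.72 for Angptl6, 1.60 ± 0.68 for P2rx3, 1.59 ± 0.69 for Sh2d6, 1.39 ± 0.51 for Avil and 1.33 ± 0.60 for Ppef1. With the column tag as a block, edgeR called 6 of the 10 higher, Car6, Cdsn, Gdap1l1, Tenm4, Angptl6 and P2rx3, with 12 of 11960 genes called higher (0.1%) and 3 lower. The blocked changes were 4.64 ± 0.87 (SE) for Car6, with an adjusted p of 0.0363 in edgeR, and 2.71 ± 0.41 for Cdsn, with 0.00726.
Between total and ribosome-free RNA the halofuginone effect of the 10 was not shown to differ. That fit took the 12 libraries as independent, although total RNA came from the same treated cells as the pools, so such matching was not used. The median difference in log2 fold change, total minus ribosome-free, was 2.10, within 0.78 for Gdap1l1 and 2.75 for Avil, and edgeR called 0 of 13465 genes (0%). At an unadjusted p under 0.05 it found 1 of the 10, Avil at 2.75 ± 0.67 (SE), and 244 genes that were higher (1.81%), and DESeq2 called 0 of the 10. Without the set A halofuginone library of total RNA, Avil was called at 3.00 ± 0.64, with an adjusted p of 0.0316 in edgeR, where 1.16% of genes were called higher.

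In the light and heavy polysomes, where the rule chose them, the 10 differed in size and in place. In set A, tag 2 and tag 4 of the light pool Car6 had 204, 108 and 580 CPM with halofuginone, against 0.972, 1.55 and 12 CPM with vehicle. In the heavy pool it had 39.7, 21.6 and 140 CPM with halofuginone, against 0.489, 0.317 and 1.87 CPM with vehicle. The vehicle library of tag 4 was the highest of its group for Car6 in both pools, and the halofuginone library of tag 4 was higher still.
P2rx3 showed the smallest fitted change in these pools. It had 71.4, 70.7 and 100 CPM in light polysomes with halofuginone, against 7.49, 13.3 and 40.1 CPM with vehicle. In heavy polysomes it had 24.4, 35.6 and 46.8 CPM with halofuginone, against 2.27, 6.40 and 14.8 CPM with vehicle. The halofuginone libraries of this ion channel were close together, and the vehicle libraries were not.
Avil had 20.6, 6.42 and 39.7 CPM in heavy polysomes with halofuginone, against 0.356, 0.136 and 1.2 CPM with vehicle. Its heavy ratio of 47.2 in tag 2 rests on 3 vehicle counts and has a 95% counting interval of 15.8 to 232. In light polysomes it had 8.95, 3.03 and 11.7 CPM with halofuginone, against 1.02, 0.921 and 1.79 CPM with vehicle. Advillin mRNA thus held a larger share of the heavy than of the light library with halofuginone and a smaller one with vehicle.
Across the 10, all 3 halofuginone libraries lay above all 3 vehicle libraries in both pools, against 2.83% of genes in light and 4.63% in heavy polysomes. The fitted log2 fold changes had a median of 3.20 in light polysomes, within 2.05 ± 0.59 (SE) for P2rx3 and 6.02 ± 1.19 for Car6. In heavy polysomes the median was 3.62, within 2.24 ± 0.62 for P2rx3 and 6.40 ± 1.01 for Car6. The change of Avil was 2.74 ± 0.60 in light and 5.47 ± 0.96 in heavy polysomes, and that of Cdsn 4.37 ± 0.80 in light and 4.64 ± 0.89 in heavy polysomes.

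**Figure D3:**
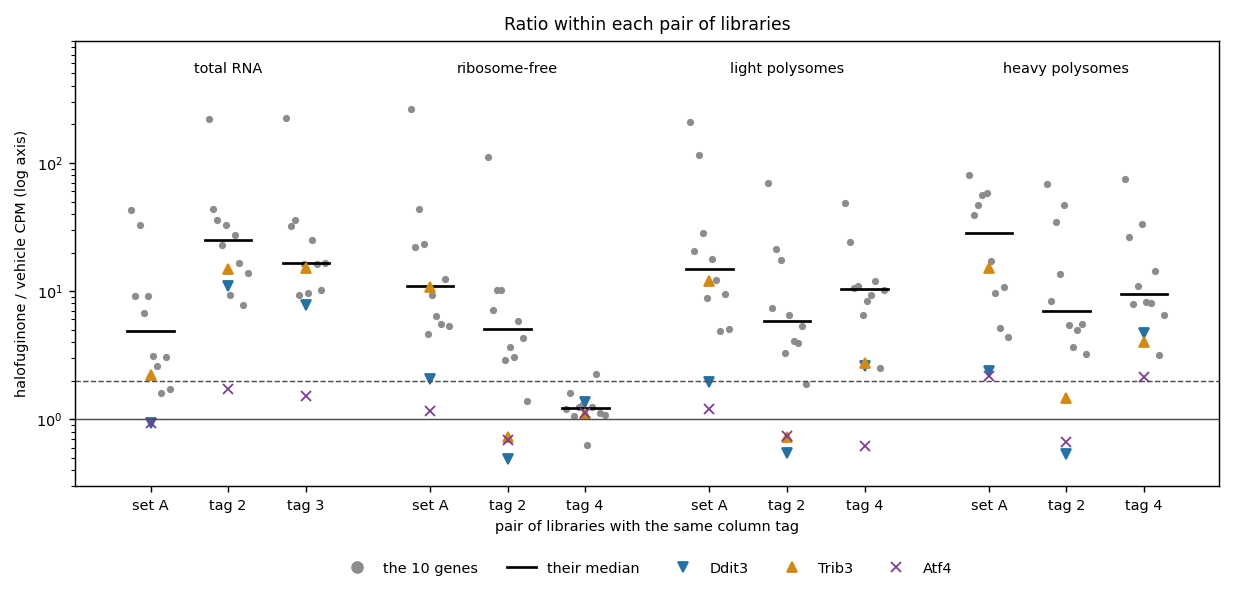
Ratio of halofuginone to vehicle CPM on a log axis in the 12 pairs of libraries with the same column tag, for the 10 genes (grey, black bar at their median) and for Ddit3, Trib3 and Atf4. Lines mark ratios of 1 and 2, and the tag 3 pair of total RNA is matched by its tag only. The 10 genes have a median of 1.22 in the ribosome-free pair of tag 4, their lowest, and Ddit3 lies below 1 in the 3 pool pairs of tag 2.

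The heavy-to-light ratio compares the share of an mRNA in the heavy and the light library, each scaled to its own total. It does not give amounts in the pools. A longer coding sequence has room for more ribosomes. With halofuginone the ratio was 0.195 to 0.241 for Car6, 0.299 to 0.605 for Cox6a2, 0.355 to 0.468 for Gdap1l1, 0.341 to 0.504 for P2rx3 and 0.422 to 0.751 for Angptl6 over the 3 tags. These 5 mRNAs held a larger share of the light library in every halofuginone pair. The ratio was 0.984 to 1.30 for Sh2d6 and 0.753 to 1.45 for Ppef1, which lay near equal shares. It was 2.19 to 2.75 for Cdsn, 2.12 to 3.40 for Avil and 2.06 to 2.25 for Tenm4, which held a larger share of the heavy library.
Over all genes the median ratio with halofuginone was 0.847 for coding sequences under 1000 bases, 1.29 from 1000 to 2000 bases and 1.27 above. Car6, just under 1000 bases, thus lay below the median of its length class in every pair. Spearman's rho between the mean log2 ratio and coding length over the 10 genes was 0.794 with halofuginone and 0.370 with vehicle, as a description of 10 points that share their libraries. Avil moved most between the treatments, with a mean log2 ratio of 1.35 with halofuginone and -1.62 with vehicle, the latter on few counts. A difference in rho between the treatments was not tested.
With vehicle the ratio was 0.156 to 0.503 for Car6, 0.368 to 0.732 for Cox6a2, 1.15 to 2.42 for Cdsn and 1.63 to 2.13 for Tenm4, which overlapped the halofuginone values of the same genes. For Avil it was 2.12 to 3.40 with halofuginone and 0.148 to 0.669 with vehicle. Avil was the 1 gene of the 10 whose halofuginone ratios all lay above its vehicle ratios, a pattern of 3.08% of 11811 genes, and the ratio is built from the libraries that chose the genes, so it is a description. Its vehicle values rest on 8, 3 and 16 counts in heavy and 21, 16 and 26 counts in light libraries. Avil also shares 9423 bases with Tsfm on the opposite strand, whose part in these counts was not tested.

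**Figure D4:**
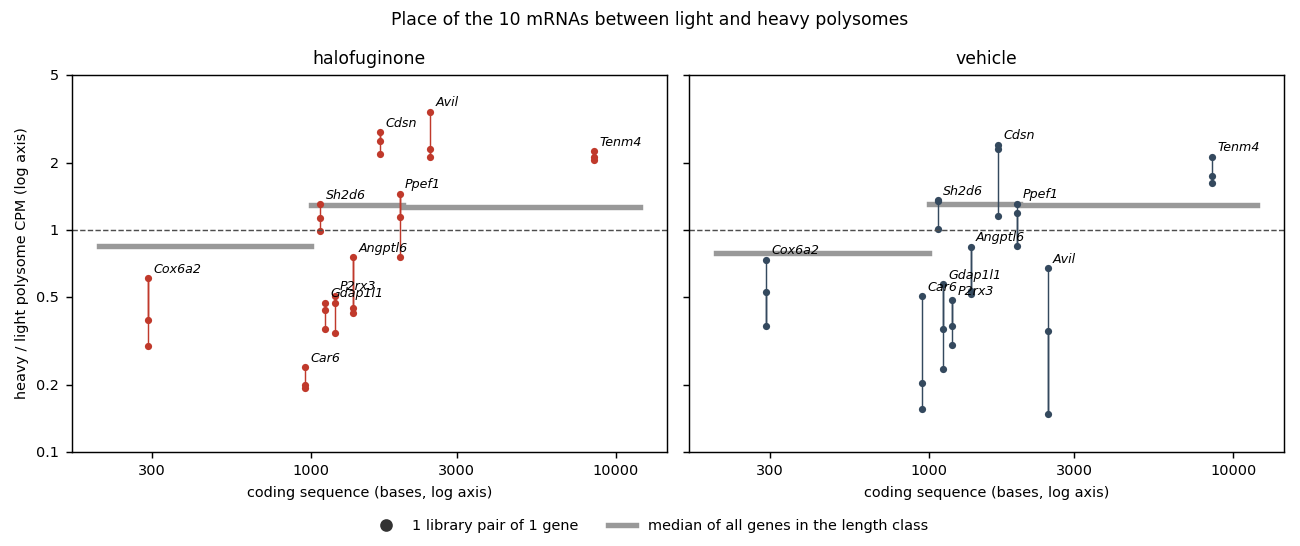
Ratio of heavy to light polysome CPM against the length of the coding sequence, both on log axes, with halofuginone left and vehicle right. Points are the 3 pairs of pools of each gene, joined by a line, and grey bars the median of all genes in a length class. Car6 lies at 0.195 to 0.241 and Avil at 2.12 to 3.40 with halofuginone, and Avil at 0.148 to 0.669 with vehicle.

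Total RNA and the pools of the same set did not rank alike. In set A with halofuginone, total RNA was lower in CPM than all 3 pools for 6 of the 10 genes, a pattern of 12.7% of genes, and above all 3 for 0 of them, against 44.1% of genes. Car6 in set A had 14.3 CPM in total RNA with halofuginone and 258, 204 and 39.7 CPM in the ribosome-free, light and heavy pools. In tag 2 with halofuginone, total RNA was higher than all 3 pools for 8 of the 10, a pattern of 41.5% of genes. Tenm4 in tag 2 had 136 CPM in total RNA with halofuginone and 5.62, 6.51 and 13.4 CPM in the pools. With vehicle in set A, 3 of the 10 lay below all 3 pools (14.4% of genes) and 4 above (42.1%), and in tag 2, 3 lay below (13.6%) and 2 above (38.5%). The 4 above in set A are thus near the share of all genes. Each library is scaled to its own total, so such values compare shares of a library and not amounts per cell.

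Ddit3, Atf4 and Trib3 were higher with halofuginone in some pairs of libraries and lower in others. Of 23 listed genes of the Atf4 and Ddit3 stress response, edgeR tested 21 in total RNA and called 0. It found 18 higher at an unadjusted p under 0.05, against 11.2% of all genes. DESeq2 called 14 of the 21 higher, against 2.27% of all genes. In set B alone edgeR called 20 of 22 higher and 1 lower, against 33.1% and 36.9% of all genes. In the pools edgeR called 0 of the listed genes. At an unadjusted p under 0.05 it found 1 of 21 higher in ribosome-free RNA (0.159% of all genes). Likewise higher were 4 of 22 in light polysomes (1.33%) and 7 of 21 in heavy polysomes (1.93%). Ddit3, which encodes Chop, had 82.6, 528 and 499 CPM in total RNA with halofuginone, against 87.7, 48.5 and 63.6 CPM with vehicle. In set A of total RNA Ddit3 thus had a ratio of 0.941 where the 10 genes had a median of 4.90. Trib3 had ratios of 2.20, 14.9 and 15.0 in set A, tag 2 and tag 3.
The pools of tag 2 parted Ddit3 from the 10. Ddit3 had ratios of 0.485, 0.540 and 0.539 there in ribosome-free, light and heavy RNA, while the 10 had medians of 5.03, 5.89 and 6.98. Trib3 had 0.728, 0.720 and 1.45 in those pairs, and Atf4 had 0.683, 0.734 and 0.659. In set A the ratios of Ddit3 were 2.04, 1.95 and 2.37, and in tag 4 they were 1.36, 2.59 and 4.68, in the same direction as the medians of the 10 genes. Atf4 mRNA itself had ratios of 0.925, 1.72 and 1.53 in the pairs of total RNA. Among the other listed genes, Bbc3, which encodes the cell death protein Puma, had 12.8, 19.3 and 20.3 CPM in total RNA with halofuginone, against 7.32, 6.77 and 7.76 CPM with vehicle. Vldlr, a lipoprotein receptor, had 3.41, 8.61 and 9.17 CPM with halofuginone, against 1.38, 1.64 and 1.26 CPM with vehicle. Neither Bbc3 nor Vldlr overlapped between treatments, a pattern of 10.4% of genes in that direction. Both were named for the smallest p in total RNA among the other stress genes, so this gap is a description. Each had an adjusted p of 0.267 in edgeR.

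Calls among relatives of the 10 genes depended on the libraries used. Of 42 genes in 9 family lists, 15 passed the filter on low counts in total RNA, edgeR called 0 and DESeq2 called 1, P2rx7, which was higher. At an unadjusted p under 0.05, 1 was higher (P2rx7) and 1 lower (Svil), both named after their values were seen. In set B alone edgeR called 4 of 18 tested relatives higher and 13 lower, against 33.1% and 36.9% of all genes. Cox6a1, the widely expressed partner of Cox6a2, had 245, 112 and 100.1 CPM with halofuginone, against 231, 192 and 213 CPM with vehicle. Gsn (gelsolin), a relative of Avil, had 771, 126 and 119 CPM with halofuginone, against 873, 629 and 699 CPM with vehicle. Both were lower in the set B halofuginone libraries than in any vehicle library and close to the vehicle values in set A. In set B alone the log2 fold change was -0.89 ± 0.08 (SE) for Cox6a1 and -2.39 ± 0.08 for Gsn, and both were called lower.
P2rx4, a relative of P2rx3, had 211, 38.3 and 40.1 CPM with halofuginone, against 239, 211 and 233 CPM with vehicle, and was called lower in set B alone at -2.46 ± 0.08. Car13 had 81.2, 80.1 and 75.0 CPM with halofuginone, against 86.2, 137 and 103 CPM with vehicle. Angptl2 had 478, 427 and 414 CPM with halofuginone, against 498, 573 and 589 CPM with vehicle. These relatives were thus lower in the means with halofuginone, where P2rx3, Car6 and Angptl6 were higher. Tenm2, the only relative of Tenm4 with more than trace counts, had 0, 6.21 and 5.37 CPM with halofuginone and 0 in all 3 vehicle libraries. Gdap1, Ppef2 and Lcp2, relatives of Gdap1l1, Ppef1 and Sh2d6, stayed under 1 CPM in every total RNA library, and Ppef2, on 11 and 16 counts with halofuginone against 2 and 2 with vehicle, was called higher in set B alone.

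In total RNA most markers of the cell types in which these genes are known stayed near 0 in both treatments, and fewer did so in the pools. Over 7 lists (tuft cells, sensory and other neurons, striated muscle, cornified epidermis, salivary gland and liver) with 76 genes, 70 had a mean under 1 CPM in halofuginone and 69 in vehicle total RNA. In ribosome-free RNA 58 did so with halofuginone and 59 with vehicle, and the pools of light and heavy polysomes lay between. Of the 9 tested in total RNA, 0 were called by edgeR or DESeq2, 0 had an unadjusted p under 0.05 and were higher, and Dclk1 was lower at that level. In set B alone edgeR called 2 of 11 higher, Runx1 and Elavl3, against 33.1% of all genes. It called 5 lower there, Alox5ap, Aqp5, Dclk1, Isl1 and Sbsn, against 36.9%, and these genes are named for their calls. The log2 fold change of Runx1 there was 0.22 ± 0.07 (SE).
Of the 76 listed markers, 13 had 0 counts in all 24 libraries. Among these, and named for their zeros, were Flg and Ivl of epidermis and Il25, Chat and Gnat3 of tuft cells. Myh1 and Myh4 of muscle and Pip of salivary gland were also among them. Other markers were present. Aqp5, a water channel of salivary gland, had 38.0, 3.85 and 3.24 CPM in total RNA with halofuginone, against 29.1, 34.2 and 36.0 CPM with vehicle. Mb (myoglobin) of muscle reached 25.2 CPM with halofuginone and 20 CPM with vehicle in the ribosome-free libraries of tag 4. Alb (albumin) of liver reached 14.6 CPM with halofuginone and 13.1 CPM with vehicle there. These libraries stood apart for the 10 genes. In tag 2, which did not, Alb had nearly the same values, 14.6 CPM with halofuginone and 12.1 CPM with vehicle. Mb had 7.55 CPM with halofuginone and 8.54 CPM with vehicle in tag 2. In set A of ribosome-free RNA, where the 10 had their highest median ratio in that pool, Mb had 0.114 CPM with halofuginone and 0 CPM with vehicle, and Alb was at 0 in both.
Summed levels in total RNA were 5.61 to 8.36 CPM with halofuginone and 7.42 to 9.13 CPM with vehicle for epidermis. For muscle they were 0.721 to 2.09 CPM with halofuginone and 1.26 to 1.60 CPM with vehicle, and for liver 0.280 to 4.13 CPM with halofuginone and 0.733 to 3.96 CPM with vehicle. In ribosome-free RNA the muscle sum reached 43.1 CPM with halofuginone and 38.1 CPM with vehicle, and the liver sum 26.5 CPM with halofuginone and 23.7 CPM with vehicle. These highest sums differed little between the treatments.
For salivary gland the sum in total RNA was 18.2 to 55.8 CPM with halofuginone and 43.1 to 51.0 CPM with vehicle. For tuft cells it was 111 to 119 CPM with halofuginone and 153 to 268 CPM with vehicle, nearly all from Dclk1. For sensory neurons it was 56.0 to 76.1 CPM with halofuginone and 62.6 to 68.3 CPM with vehicle, nearly all from Runx1, and for other neurons 1.77 to 1.96 CPM with halofuginone and 1.43 to 2.74 CPM with vehicle. Their part in the values of the 10 genes was not tested. The label of tissue restriction is background knowledge and was not tested, as only 1 cell line was measured.

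Neighbouring genes bear on how firmly single genes can be read, since the strand setting of the counting is not given. Tsfm, which overlaps Avil, had 33.0 to 36.6 CPM with halofuginone and 25.1 to 30.0 CPM with vehicle in total RNA. Avil had 8.04 to 14.8 CPM with halofuginone and 0.431 to 0.913 CPM with vehicle there. The part of Tsfm in the Avil counts was not tested. Ssrp1 shares 229 bases with P2rx3 on the opposite strand and had 464 to 489 CPM with halofuginone and 323 to 436 CPM with vehicle. Cox6a2 lies within Itgad on the opposite strand, which had 0 counts in total RNA, and A230050P20Rik, which shares 500 bases with Angptl6, had at most 0.0437 CPM. Antisense genes inside Tenm4 reached at most 2.32 CPM with halofuginone, for Gm15413, and 0.475 CPM with vehicle.

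Across all 24 libraries the 10 genes varied together, which their choice on the light and heavy libraries among these favours. Over their 45 pairs the correlation of log2(CPM + 0.5) had a median of 0.836, from 0.510 for Gdap1l1 and Tenm4 to 0.977 for Car6 and Cox6a2, as a description of libraries that share treatment, tag and kind of RNA. Within the 12 halofuginone libraries the median was 0.693, and within the 12 vehicle libraries 0.366. Among 10911 other genes, those most like the mean of the 10 were Akr1b7 with r = 0.928, Soat2 with 0.924, Ostn with 0.905, Taf7l with 0.904, Atp2a3 with 0.899, Elmo1 with 0.894, Trem3 with 0.893, Sspo with 0.878, Cd74 with 0.877 and Als2cl with 0.876. Trib3 was 19 in that order at 0.801, Ddit3 129 at 0.611 and Atf4 4020 at 0.125.
All of these most similar genes stayed under 0.5 CPM in vehicle total RNA. Akr1b7, an aldo-keto reductase, had 0.817, 4.90 and 4.89 CPM in total RNA with halofuginone and 0 in all 3 vehicle libraries. Cd74, the invariant chain of class II antigen presentation, had 2.45, 3.32 and 3.12 CPM with halofuginone, against 0.110, 0.0863 and 0 CPM with vehicle. Both were chosen for their likeness to the 10 over the same libraries, so these values are a description.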

How the data were processed

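The authors deposited whole-number counts per gene symbol in 1 table for all 24 libraries. Per the labels' protocols, polyadenylated RNA was selected and made into libraries with TruSeq Stranded mRNA. The tools were Subread 1.5.0p3 with featureCounts, STAR 2.5.2b and Trimmomatic 0.36, and the build GRCm38.p5, per the submitters' processing notes, with roles and strand setting not given in the sources used here. No spike-in is mentioned. The table held 0 columns of other samples.

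Fraction ranges in the headers were assigned to pools as numbered from the top of the gradient, which the headers do not state; mitochondrial RNAs held 8.69% to 34.9% of counts in the lowest-numbered pool and 0.276% to 0.746% in the highest.

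The 10 genes, the gene lists and the tests were chosen with earlier results of these data known. Levels are CPM of the library total. Each kind of RNA was fitted alone (6 libraries), and the difference of total and ribosome-free RNA from 12 libraries, with edgeR 4.0.16 (R 4.3.3), TMM factors, its default filter and a Benjamini-Hochberg threshold of 0.05 over all genes tested. All 10 genes passed that filter in each fit. In total RNA Car6, Cox6a2, Avil and Gdap1l1 did so only with their halofuginone libraries, as vehicle levels fell to 0.330, 0.165, 0.431 and 0.431 CPM. In ribosome-free RNA this held for Car6, Cox6a2, Gdap1l1 and Tenm4, with vehicle levels down to 0.485, 0.461, 0.582 and 0.518 CPM. The set B minus set A fit has header set and its interaction with treatment as terms. No label ties samples to separate cultures beyond the stated triplicates. The code was tested on simulated data. Alternatives were DESeq2 1.42.0, median-of-ratios factors, no filter, at least 1 CPM in at least 3 libraries, a block for the column tag, set B alone and leaving out each library.

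Deviations from group means correlated across genes between same-tag libraries of the treatments at 0.909, 0.807 and 0.787 in ribosome-free, 0.792, 0.683 and 0.393 in light and 0.766, 0.709 and 0.359 in heavy RNA, so tags pair the pools. In total RNA they did so at 0.351 in set A, 0.398 in tag 2 and -0.001 in tag 3. The tag 3 halofuginone library correlated best with the tag 2 vehicle library there (0.450), so tags pair total RNA only in part.

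Named genes were the 10, Ddit3, Atf4, Trib3 and the 2 other stress genes with the smallest p in total RNA, the most abundant gene of each family and marker list, the 10 genes most correlated with the 10, genes at the edge of the rule and neighbours. Codon shares and coordinates come from GENCODE M21 (GRCm38) and replace a planned use of RefSeq proteins. Counting intervals cover counting error only.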

Additional observations from a re-analysis of the deposited data

Results flagged for a closer look

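The halofuginone effect in total RNA differed between the header sets for 7 of the 10 genes in edgeR's interaction test. Set B minus set A, the difference in log2 fold change was 3.44 for Tenm4, 3.43 for Angptl6, 3.20 for Ppef1, 2.45 for Car6, 2.13 for Cdsn, 1.71 for Sh2d6 and 1.61 for P2rx3. All 7 were larger in set B, a direction in which 24.4% of 13020 genes were called. Dose in the header (50 nM in set A), header set and library cannot be told apart, and set A has 1 library per treatment. Groups of 3 libraries were too small to look for single outlying libraries.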

How the results depend on the processing

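The counts of the 10 genes called in total RNA depended on the set A halofuginone library and on the tool. edgeR called 0 of the 10 (0% of genes), DESeq2 called 10 (2.27% called higher) and set B alone gave 10 (33.1%). Leaving out each library gave 0 to 10, the 10 without the set A halofuginone library (29.6%). The replicate block in total RNA gave 0. Tags pair total RNA only in part, since the tag 3 halofuginone library correlated best with the tag 2 vehicle library (0.450). In ribosome-free RNA the pairing of tags as a block called 6 of the 10 (0.1% of genes called higher), and no other alternative listed called any. At an unadjusted p under 0.05, leaving out each library gave 3 to 9 of the 10, against 0.0651% to 0.244% of genes. Between total and ribosome-free RNA, leaving out each library gave 0 to 1 called. Of 490 log2 fold changes and differences of single genes under the alternatives, 488 kept their sign. The other 2 were total minus ribosome-free without the tag 4 vehicle ribosome-free library. Over the libraries left out in turn, Gdap1l1 ran between -0.27 and 2.23 and P2rx3 between -0.027 and 1.48, and the cause was not tested. Set B minus set A called 7 to 9 of the 10. In total RNA and in total minus ribosome-free RNA the block changed no call of the 10; calls in light and heavy polysomes, which chose the genes, were not compared. By rank correlation, 8 of the 10 most similar genes were shared. Levels under 1 CPM in vehicle rest on few counts, which limits ratios of Avil, Cox6a2, Car6 and Gdap1l1.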
